A study of Zea mays with 9 samples.

Results

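The response of maize leaves that was common to 2 sources of light with a low ratio of red to far-red (R:FR) was measured by RNA sequencing, with all 6 low R:FR libraries set against the 3 weed-free control libraries. The 6 libraries comprised 3 from a biological low R:FR treatment, in which far-red light was reflected from a surrogate weed, and 3 from an artificial low R:FR treatment, in which far-red LEDs supplied it. Light source was kept as a second factor, so that each source had its own mean and the common response was the average of the 2 sources minus the control. Of 30184 genes in the deposited table, the 24093 (79.8%) whose normalized read count reached 10 in 3 or more libraries were tested.

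All plants were 9-day-old seedlings of 1 hybrid, CG108 x CG102, and each library was made from total RNA of the second leaves of 3 plants that were pooled. The labels give an R:FR of about 0.6 for the biological and the artificial treatment and of about 1.5 for the weed-free control, with the same incoming photon flux in every treatment. The surroundings of the plants also differed, since potting mix with the living surrogate weed was used in the biological treatment and baked clay granules in the other treatments. All plants shared 1 genotype and 1 light quantity, and the replicates were pools of plants, so the spread between libraries describes pools and not single plants. In a whole leaf, a change in the share of a cell type and a change in RNA per cell cannot be told apart.

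Plants read the ratio of red to far-red light through phytochromes, photoreceptors that switch between an active and an inactive form. Far-red light reflected by neighbouring leaves lowers the active form, which relieves phytochrome-interacting factors (PIFs) from breakdown and changes the expression of genes for hormones, cell elongation and pigments before a neighbour casts any shade. In maize this early signal of competition is known to alter seedling growth and pigmentation.

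Between 23372555 and 40283408 reads were recovered per library from the normalized values in the low R:FR groups, and between 22775151 and 33132805 in the control. Biological replicate 3 stood apart from the other 8 libraries. Its mean distance from them was 0.909 log2 units, against 0.576 to 0.65 for each of the others, and 897 genes were 4-fold or more under the average of the remaining libraries in it, against 16 to 120 elsewhere. Counts over all genes, and for some of the lists, are therefore given with and without it. The recovered read totals were compared with the totals of mapped reads that the study lists. Each artificial and control total lay just below the listed total of the same-numbered replicate in the other of these groups. It lay several times farther from the total listed under its own label. The biological totals lay just below those listed for the same biological replicates. The groups here follow the deposited labels. If those labels were exchanged, the contrast would instead be the average of the biological and weed-free leaves minus the leaves under the artificial source.

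By the deposited labels, the average of the 2 low R:FR sources differed from the control in 448 genes (limma, adjusted p under 0.1). Of these, 242 rose and 206 fell, with both source means on the same side of the control. Neither source was tested alone against the control, so 1 source can carry a call. The change was at least 1.5-fold under each source in 243 of the 448. These were 1.86% of all genes tested, or 1.0% higher and 0.855% lower. The rise was at least 2-fold in 78 genes and the fall at least 2-fold in 74, and 14 and 13 genes changed at least 4-fold. The median log2 fold change was 0.82 among the genes that rose and -0.79 among those that fell, compared with -0.03 over all genes tested. The 6 low R:FR libraries did not overlap the 3 control libraries in 404 of the 448 genes (90.2%), whereas 8.65% of all genes tested separated in this way. Separation was complete in 226 of the 242 genes that rose and in 178 of the 206 that fell, against 4.03% and 4.62% of all genes tested. The genes were called from these same values, so the separation follows from the call and is no separate support for it. The named genes with the largest rises and falls were also chosen for having no overlap. The genes that rose had a median normalized read count of 465 and those that fell of 286, compared with 192 for all genes tested. The number of genes was sensitive to single libraries. Without biological replicate 3, 4028 genes (16.7%) passed, 2055 higher and 1973 lower, and 446 of the 448 were among them. Leaving out biological replicate 2 gave 1014 genes and leaving out biological replicate 1 gave 114, and leaving out artificial replicate 1 gave 33. With only 2 control libraries the count was 9, 0 and 12 without control replicates 1, 2 and 3 in turn, and of the 44 called genes named by a fixed rule or as examples of unnamed genes, 1, 0 and 3 were still called. The 0 came from limma, with 2339 genes at an unadjusted p under 0.05. With no light source term, 16 of the 44 were called. For most single genes below, losses in that fit or with 1 library left out are not listed. With the deposited TPM values in place of normalized read counts, 280 genes rose and 491 fell, so that 36.3% of the changed genes were higher, against 54.0% with normalized read counts.

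**Figure D1:**
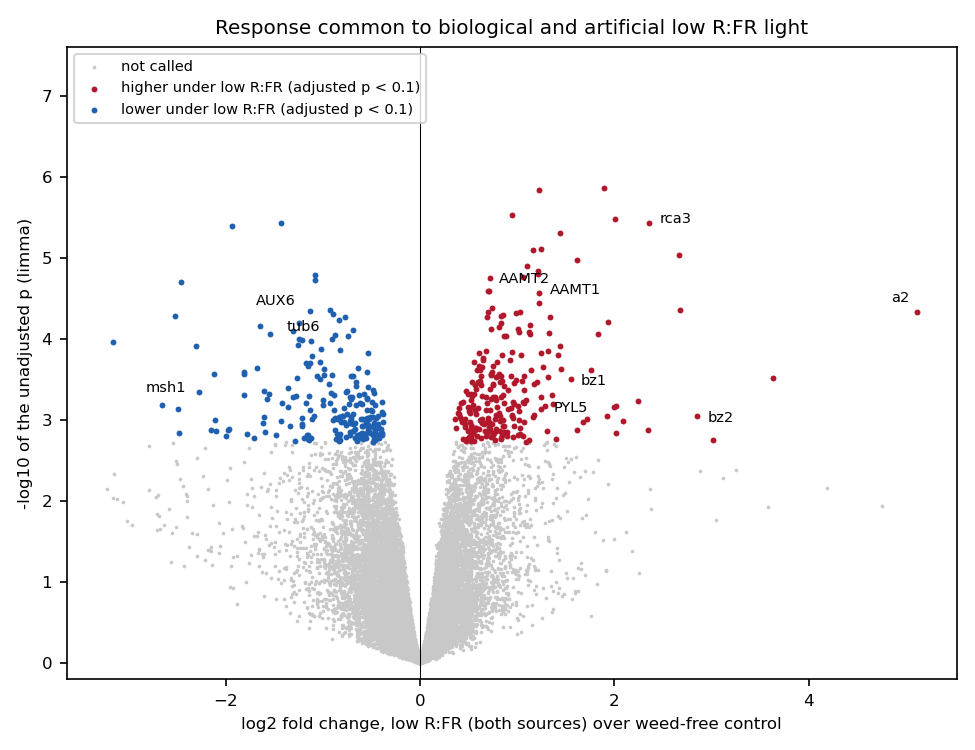
Log2 fold change of low R:FR over control leaves, averaged over the 2 sources (x axis), against the -log10 of the unadjusted limma p (y axis), for the 24093 genes tested. The coloured points are the 242 genes that rose and the 206 that fell; a2 lies farthest to the right at 5.11.

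The largest rise was in a2, a gene for a late step of anthocyanin synthesis. Anthocyanins are the red and purple pigments of maize leaves and kernels, made from flavonoids by a chain of enzymes and moved into the vacuole. Of 12 anthocyanin and flavonoid genes tested, 3 rose and 1 fell (33.3% together, against 1.86% of all genes tested), and the median of the 12 was -0.07. The 3 that rose were a2 (anthocyanidin synthase), bz1 (the flavonoid 3-O-glucosyltransferase that adds a glucose to the pigment) and bz2 (a glutathione S-transferase required for the transfer to the vacuole).

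The normalized read count of a2 (chromosome 5, 68086720 to 68088262 of the assembly Zm-B73-REFERENCE-NAM-5.0, to which all positions given here refer) ranged over 96.7 to 253 in the 6 low R:FR libraries, with a median of 222, and was 1.79, 1.28 and 28.4 in control replicates 1, 2 and 3. Every low R:FR library was above every control, and control replicate 3 lay far above the other controls. The log2 fold change was 5.11 ± 0.72 (SE, n = 6 and 3; limma adjusted p = 0.0335), with 5.31 under the biological and 4.90 under the artificial source. Because 2 controls were close to 0, this value depends on the pseudocount and was 5.33 with a pseudocount of 0.5 and 4.16 with one of 5.

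A wide spread among the controls was also found for bz2 (chromosome 1, 247049871 to 247051165), which had 103 to 234 normalized read counts in low R:FR leaves (median 207), against 28.6, 6.39 and 71.1 in control replicates 1 to 3. Its log2 fold change was 2.85 ± 0.60 (limma adjusted p = 0.084). For bz1 (chromosome 9, 13120406 to 13122158) low R:FR leaves had 44.9 to 113 (median 82.9), against 21.5, 24.3 and 33.2 in the control, a log2 fold change of 1.55 ± 0.28 (adjusted p = 0.0608). In a2, bz1 and bz2 alike, artificial replicate 2 was the lowest of the low R:FR libraries and control replicate 3 the highest of the controls, and no low R:FR library overlapped a control.

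The gene that fell was pl1, a MYB regulator of the pigment pathway (chromosome 6, 119938927 to 119940495). It had 79.8 to 177 normalized read counts in low R:FR leaves (median 138) and 199, 210 and 212 in control leaves, a log2 fold change of -0.76 ± 0.17 (limma adjusted p = 0.0955). This call was lost with edgeR, which was run without artificial replicate 2, and with no filter on low counts. It was also lost with limma without artificial replicate 2. The earlier steps of the pathway did not pass the test. The log2 fold change was 0.07 for c2 and 0.60 for whp (both chalcone synthases), -0.28 for chi1 (chalcone isomerase), -0.16 for fht1 (flavanone 3-hydroxylase) and -0.19 for dfr1 (dihydroflavonol reductase), while r1, a bHLH regulator, stood at 0.02. In each of these 6 genes the low R:FR and the control libraries overlapped. An unnamed gene, LOC100281894 on chromosome 1 (307135192 to 307136760), chosen after its values were seen, also had its lowest low R:FR library in artificial replicate 2 and its highest control in replicate 3, with 79.8 to 245 normalized read counts under low R:FR (median 170), against 4.48, 6.39 and 50.2 in the control and a log2 fold change of 3.63 ± 0.65 (adjusted p = 0.0599).

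**Figure D2:**
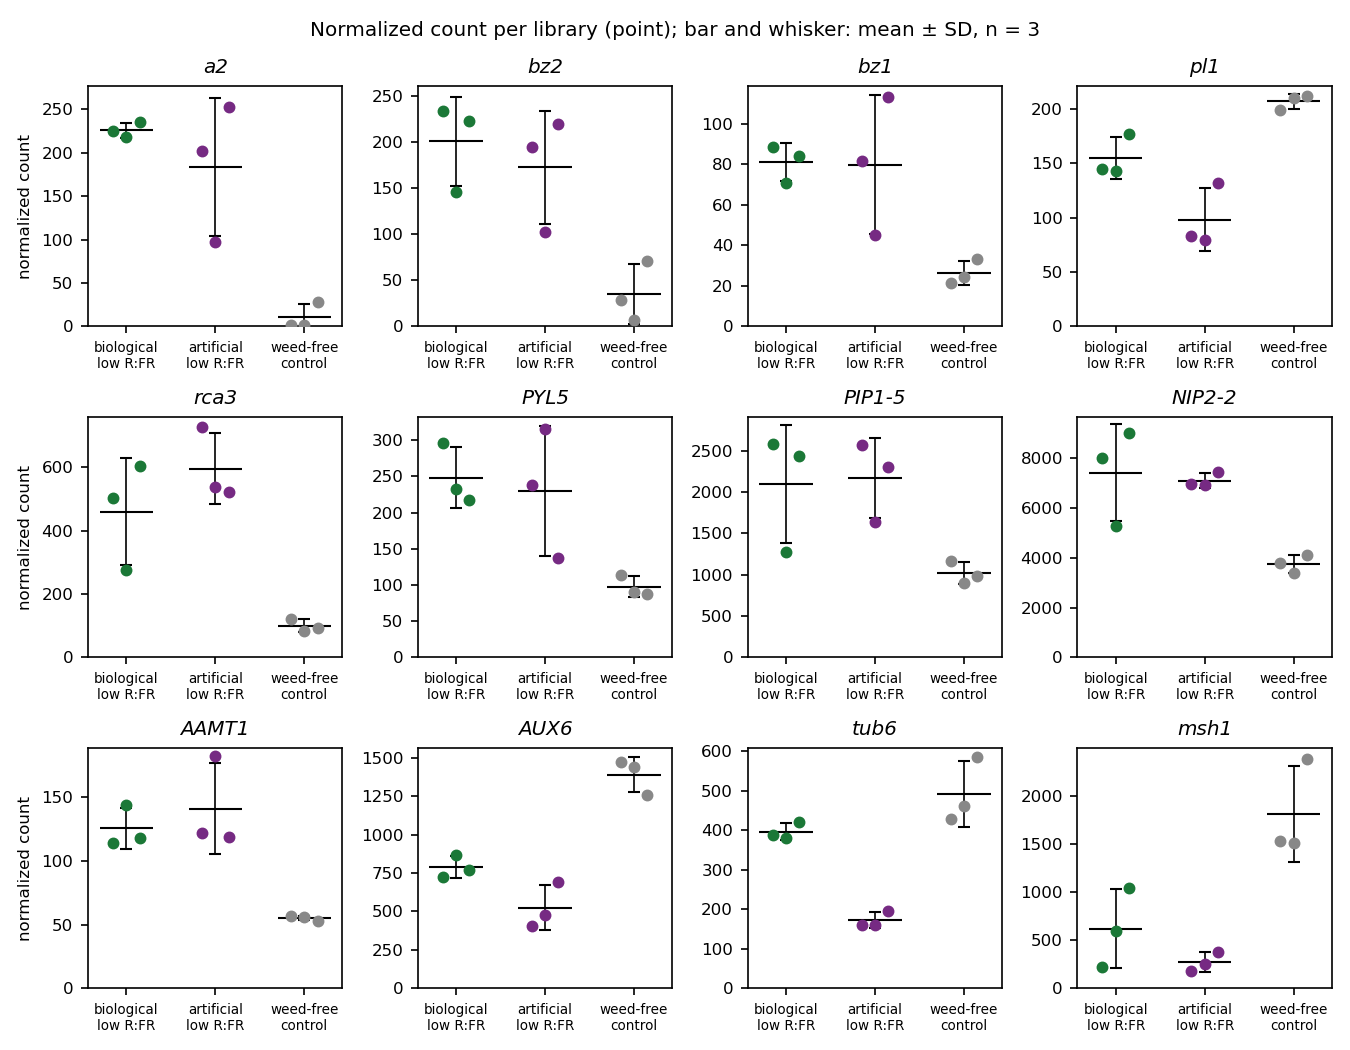
Normalized read count (linear y axis, starting at 0) of 12 genes that rose or fell, in each of the 9 libraries, with biological and artificial low R:FR to the left of the weed-free control. Each point is 1 library, and the bar and whisker are the mean ± SD of 3 libraries; for a2 the low R:FR libraries sit between 96.7 and 253, all above the control libraries at 1.28 to 28.4.

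Aquaporins carry water and small neutral solutes across membranes, and HAK transporters move potassium into cells. Of 46 genes of these families tested, 6 rose and 1 fell (15.2% together, against 1.86% of all genes tested), and the median was 0.21. Without biological replicate 3, 14 rose and 4 fell, against 8.53% and 8.19% of all genes tested.

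NIP2-2 (chromosome 6, 123754366 to 123758140), of a class of channels that carry silicon, had 5264 to 9003 normalized read counts under low R:FR (median 7193), against 3786, 3387 and 4118 in the control. The groups did not overlap, and its log2 fold change of 0.93 ± 0.16 (limma adjusted p = 0.0534) was composed of 0.95 under the biological and 0.92 under the artificial source. PIP1-5, an aquaporin of the plasma membrane type, had 1277 to 2579 under low R:FR (median 2371) and 1161, 898 and 987 in the control, with a log2 fold change of 1.03 ± 0.23 (adjusted p = 0.0938). Its lowest low R:FR library, biological replicate 2, was just above the highest control. NIP3-1 rose by 0.66 and NIP1-1 fell by 0.79 on the log2 scale; in NIP1-1 the groups overlapped, and both calls were lost with edgeR.

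Among the potassium transporters, HAK3 (chromosome 8, 53178033 to 53181247) had 24.9 to 51.7 normalized read counts under low R:FR (median 35.4), against 11.6, 14.1 and 12.3 in the control, a log2 fold change of 1.45 ± 0.25 (limma adjusted p = 0.0581). HAK7 had 446 to 568 under low R:FR (median 478), against 337, 317 and 389 in the control, a difference of 0.49. Both genes separated the groups without overlap, but the call of HAK7 was lost with edgeR and with TPM values. HAK11, named after its values were seen, had 1246 to 1800 (median 1354) under low R:FR and 1017, 850 and 542 in the control. The tonoplast aquaporin tip4a, also named after its values were seen, had 181 to 1493 under low R:FR (median 332) and 2607, 4135 and 2235 in the control. Although these groups did not overlap, the spread was wide and its log2 fold change of -2.79 ± 0.66 did not pass (adjusted p = 0.104).

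Of 4 phosphate transporters tested, 1 rose, and the median of the 4 was 0.77. That gene, pht3 (chromosome 2, 101800075 to 101801817), had 457 to 763 normalized read counts under low R:FR (median 615) and 375, 280 and 346 in the control. All 6 low R:FR libraries were higher, and the artificial libraries, at 664 to 763, were above the biological ones, at 457 to 565. The log2 fold change was 0.85 ± 0.12 (limma adjusted p = 0.0335), with 0.60 under the biological and 1.11 under the artificial source; the difference between sources of -0.51 did not pass (adjusted p = 0.17). Without biological replicate 3, 3 of the 4 transporters rose, in a fit that called 8.53% of all genes tested higher.

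With all libraries, few genes of each hormone pathway were called. Auxin promotes elongation and is limited by Aux/IAA repressors. Of 39 auxin genes tested, 0 rose and 2 fell (5.13%, against 1.86% of all genes tested), with a median of -0.14. The 0 came from limma, and 7 genes of the list, in either direction, had an unadjusted p under 0.05; edgeR called 1 gene and DESeq2 called 2. AUX6 (chromosome 8, 113346216 to 113349828) had 405 to 865 normalized read counts under low R:FR (median 709), against 1475, 1439 and 1258 in the control. No low R:FR library reached the lowest control, and the log2 fold change was -1.13 ± 0.16 (limma adjusted p = 0.0335), with -0.82 under the biological and -1.44 under the artificial source. AUX14 fell by 0.87, but with 115 to 309 under low R:FR (median 175) and 262, 282 and 438 in the control, its groups overlapped at biological replicate 3 and the call was lost with edgeR.

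Abscisic acid is perceived by PYL receptors, which inhibit type 2C protein phosphatases (PP2Cs). Of 16 abscisic acid and drought genes, 1 rose (6.25%, against 1.86% of all genes tested), namely the receptor gene PYL5 (chromosome 9, 143120565 to 143121710). It had 137 to 316 normalized read counts under low R:FR (median 235), against 114, 90.7 and 88.1 in the control, without overlap, and a log2 fold change of 1.25 ± 0.24 (limma adjusted p = 0.071). Of 20 PP2C genes, a family added to the lists once gene names were known, 2 rose, PP2C25 by 0.62 and PP2C23 by 0.55, and the median was -0.06. Both calls were lost with edgeR and with TPM values.

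In the gibberellin list, 1 of 6 genes rose (16.7%, against 1.86% of all genes tested), eks1 (ent-kaurene synthase, an early step of gibberellin synthesis). It had 2373 to 5845 normalized read counts under low R:FR (median 4154) and 2445, 2359 and 2517 in the control. Biological replicate 3 fell within the control range, and the call at 0.68 ± 0.15 (limma adjusted p = 0.0945) was lost with edgeR, with TPM values and with no filter. In the ethylene list, 1 of 5 genes rose, ACO31 (an ACC oxidase, which makes ethylene). ACO31 had 455 to 734 under low R:FR (median 578), against 390, 333 and 356 in the control, with no overlap and a log2 fold change of 0.72 ± 0.15 (adjusted p = 0.0783). None of the 23 cytokinin genes and none of the 42 jasmonate genes passed with limma. Of them, 6 and 4 had an unadjusted p under 0.05, edgeR called 0 in both lists, and DESeq2 called 2 and 1. Without biological replicate 3, 6 cytokinin genes rose and 0 fell, and 1 jasmonate gene rose and 4 fell. That fit called 8.53% of all genes tested higher and 8.19% lower.

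Of cell wall and cytoskeleton genes, 9.09% of the wall-loosening list and 7.69% of the tubulin and actin list were called, against 1.86% of all genes tested. None of the 17 cellulose and secondary wall genes was called. Of 11 wall-loosening genes, 1 rose, xet1, a xyloglucan endotransglycosylase that cuts and rejoins wall polymers during growth. It had 6887 to 12659 normalized read counts under low R:FR (median 9373) and 6548, 5411 and 5292 in the control. Every low R:FR library was above every control, by a log2 fold change of 0.73 ± 0.14 (limma adjusted p = 0.0724). Xet1 was called in 12 of 20 alternatives, and edgeR was among those that lost it. Of 26 tubulin, actin and kinesin genes by symbol, KIN5 rose by 0.63 (a call lost with edgeR) and tub6 (a beta-tubulin) fell. For tub6 (chromosome 3, 192526082 to 192529624), low R:FR leaves had 160 to 421 (median 288), against 429, 463 and 587 in control leaves. The biological libraries, at 380 to 421, were just below the controls, and the artificial ones, at 160 to 197, were far below. Its log2 fold change of -0.90 ± 0.13 (adjusted p = 0.0335) averaged -0.30 under the biological and -1.50 under the artificial source.

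Genes encoding photosynthetic complexes gave no common call. All 14 light harvesting and photosystem genes tested were expressed, with a median of 0.09. Limma called 0 of them with all libraries and 0 without biological replicate 3, and 0 had an unadjusted p under 0.05; edgeR and DESeq2 called 0 as well. In the list of the C4 and Calvin cycles, 1 of 17 genes rose (5.88%, against 1.86% of all genes tested). That gene was rca3, annotated as a rubisco activase, an enzyme that frees the carbon-fixing enzyme rubisco from inhibitory sugars. Rca3 (chromosome 4, 1223272 to 1224993) had 274 to 726 normalized read counts under low R:FR (median 531) and 122, 83.1 and 92.9 in the control. The groups did not overlap. The log2 fold change was 2.36 ± 0.25 (limma adjusted p = 0.0142), with 2.14 under the biological and 2.58 under the artificial source. This call was lost in 1 of 20 alternatives, without control replicate 2.

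The neighbouring gene in the same orientation is rca1 (chromosome 4, 1225439 to 1227877), also a rubisco activase, named here after its values were seen. It had 54548 to 79833 normalized read counts under low R:FR (median 60167), against 42901, 38513 and 45793 in the control. The groups did not overlap, but the log2 fold change of 0.55 ± 0.13 did not pass (limma adjusted p = 0.105). Whether reads were shared between these related and adjacent genes was not tested. The values of C4 marker genes overlapped between groups, with log2 fold changes of 0.08 for pep1 and 0.14 for pdk1 (mesophyll) and 0.21 for me3 and -0.05 for ssu1 (bundle sheath), and none of these 4 passed.

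The next 4 genes that fell belong to no list. The named gene sig3, a sigma factor that directs the plastid RNA polymerase to promoters, had 1022 to 1909 normalized read counts under low R:FR (median 1380) and 2247, 2393 and 2238 in the control. All 6 libraries were below the control, with a log2 fold change of -0.76 ± 0.17 (limma adjusted p = 0.0876). Sig3 was called in 12 of 20 alternatives, and TPM values were among those that lost it. The import receptor gene toc34 had 234 to 364 under low R:FR (median 303), against 377, 391 and 463 in the control, a log2 fold change of -0.46 that was called in 9 of 20 alternatives. The other 2 were named after their values were seen. RH3A (a chloroplast RNA helicase) had 859 to 1819 under low R:FR (median 1199), against 2176, 1752 and 1918, and fsd1 (an iron superoxide dismutase) had 105 to 299 (median 176), against 343, 293 and 402. Their log2 fold changes were -0.69 and -0.93, and in both genes 1 biological library overlapped the controls while the artificial ones did not.

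Of 41 defence genes tested, 2 rose and 1 fell (7.32% together, against 1.86% of all genes tested) and the others did not pass, with a median of 0.20. Without biological replicate 3, 7 rose and 4 fell, against 8.53% and 8.19% of all genes tested. The pathogenesis-related gene prp4 had 83.1 to 625 normalized read counts under low R:FR (median 207), against 69.8, 74.1 and 64.4 in the control. Artificial libraries reached 204 to 625 and biological ones 83.1 to 210, all above the control, with a log2 fold change of 1.68 ± 0.36 (limma adjusted p = 0.0848). MPI, a proteinase inhibitor gene on chromosome 8, had 130 to 351 under low R:FR (median 258) and 97.6, 94.6 and 129 in the control, a log2 fold change of 1.17 ± 0.24 (adjusted p = 0.0839) that was lost with edgeR. Of the opposite sign was prp2, which had 66.2 to 207 under low R:FR (median 90.4) and 203, 204 and 238 in the control, overlapping at biological replicate 3 (log2 fold change -1.14).

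A methyltransferase gene for volatile synthesis was among the 12 named genes with the largest rise. AAMT1, an anthranilic acid methyltransferase (chromosome 9, 3414740 to 3416781), had 114 to 182 normalized read counts under low R:FR (median 120) and 56.4, 56.2 and 53.1 in the control. The log2 fold change was 1.23 ± 0.17 (limma adjusted p = 0.0335), 1.16 under the biological and 1.31 under the artificial source. AAMT2, which lies on the same chromosome (3539926 to 3541969), and SAMS1, an S-adenosylmethionine synthetase that makes the methyl donor, were named after their values were seen. AAMT2 had 3939 to 6519 (median 4930) under low R:FR, against 3035, 3037 and 3159, and SAMS1 had 11034 to 15084 (median 12153), against 8399, 7798 and 7399. Both rose by 0.70 on the log2 scale (adjusted p = 0.0283 and 0.0335), and in all of AAMT1, AAMT2 and SAMS1 the groups did not overlap.

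Other named genes that rose were ZCN26, of the FT-like family, with 266 to 517 normalized read counts under low R:FR (median 332), against 156, 149 and 193 in the control and a log2 fold change of 1.03 ± 0.15 (limma adjusted p = 0.0335), and GB1, with 2166 to 4780 (median 3263), against 1048, 1513 and 1257 and a log2 fold change of 1.36. The transcription factor gene bZIP17 rose by 0.64, the homeobox gene HB84 by 0.42 and hsp70-5 by 0.79. In these 5 genes the groups did not overlap, and the call of HB84 was lost with edgeR. Of the named genes that were called, msh1 (chromosome 4, 55392641 to 55396408) fell most, with 177 to 1037 under low R:FR (median 316), against 1534, 1504 and 2384 in the control and a log2 fold change of -2.27 ± 0.43 (adjusted p = 0.0698). Falls without overlap were also measured in PAPc (-1.21), rf2c (an aldehyde dehydrogenase gene, -0.69), sad1 (-0.55) and idh2 (-0.47), of which rf2c and idh2 were not called with edgeR. Only 10 named genes met the criteria for a fall, so that fewer were named than the 12 that rose.

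Nitrogen assimilation genes, which encode enzymes that turn nitrate into amino acids, were listed because the study measured this pathway. The 11 tested include no gene named as a nitrate reductase or an NADH-dependent glutamate synthase. The study measured the activity of both enzymes. Of 11 tested, limma called 0, with 3 at an unadjusted p under 0.05, while edgeR called 0 and DESeq2 called 1. Their median was -0.01. The 2 largest values were 1.02 ± 0.34 for asn3 (asparagine synthetase) and 0.81 ± 0.22 for gln3 (glutamine synthetase), and neither passed (limma adjusted p = 0.191 and 0.136). In asn3, the biological libraries had 111 to 148 normalized read counts and the artificial ones 37 to 49.8, against 17.9, 40.9 and 64.4 in the control. In gln3, the biological libraries had 689 to 1057 and the artificial ones 292 to 573, against 311, 289 and 380 in the control. Only the biological libraries were all above the control in these 2 genes, but the difference between sources did not pass in asn3 (1.49, adjusted p = 0.151) or gln3 (1.07, adjusted p = 0.118). The log2 fold change was -0.03 for nir (nitrite reductase), -0.19 for gs2 (plastid glutamine synthetase), 0.16 for fgs1 (ferredoxin glutamate synthase), 0.14 for gdh1 (glutamate dehydrogenase), 0.32 for gln2, -0.06 for gln4, -0.01 for gln5, -0.51 for gln6 and -0.21 for asn1. Without biological replicate 3, 3 genes of this list rose (gln2, gln3 and fgs1) and 1 fell (gln6), against 8.53% and 8.19% of all genes tested. For fgs1 that library had 26468 normalized read counts, against 49714 to 57947 in the other low R:FR libraries and 46136, 38347 and 42572 in the control, and the log2 fold change without it was 0.35 ± 0.09.

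Light signalling genes did not pass either. Of 11 tested, limma called 0, with 4 at an unadjusted p under 0.05, edgeR called 0 and DESeq2 called 2, and the median was 0.02. Of these 11, PIF5 and COL8 separated the groups, both with low R:FR higher, as 4.03% of all genes tested did. PIF5 had 970 to 1657 normalized read counts under low R:FR (median 1295), against 922, 823 and 939 in the control (log2 fold change 0.54 ± 0.16, limma adjusted p = 0.15). COL8, a CONSTANS-like gene, had 4923 to 7679 (median 5989), against 4256, 3997 and 3792 (0.56 ± 0.14, adjusted p = 0.112). Phytochrome genes had log2 fold changes of 0.40 (PHYB), -0.03 (PhyB2), -0.08 (phyA2) and -0.26 (PHYC), and the blue-light receptor gene nph1 stood at 0.13. The remaining values were 0.02 for PIF4, 0.02 for COL10, -0.10 for COL5 and -0.53 for COL14. With biological replicate 3 left out, PIF5, COL8, PHYB and nph1 rose and COL14 fell, with log2 fold changes of 0.44, 0.48, 0.48, 0.31 and -0.59, in a fit that called 8.53% of all genes tested higher and 8.19% lower.

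**Figure D3:**
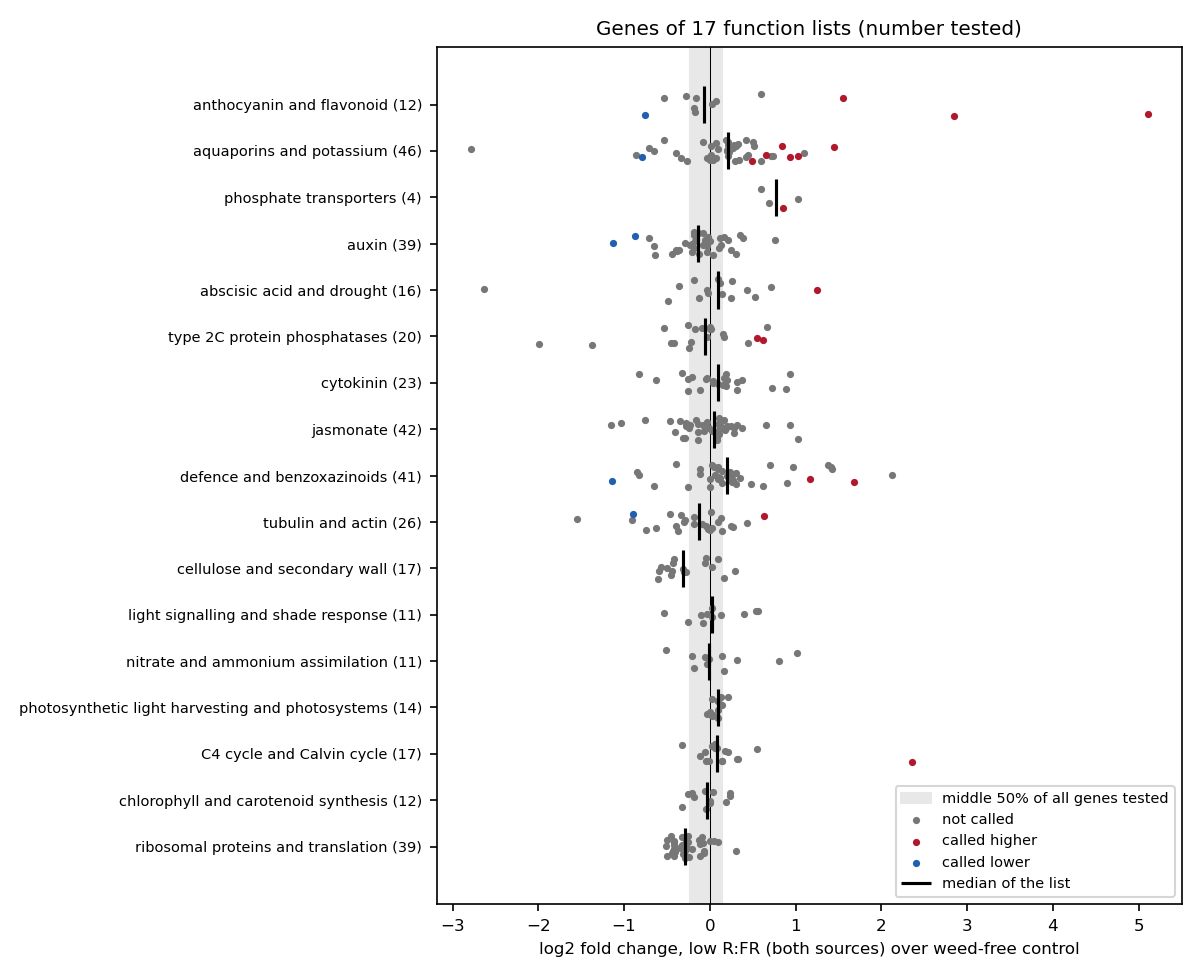
Log2 fold change of low R:FR over control leaves (x axis) for members of 17 gene lists, 1 row per list with the number tested in brackets; each point is 1 gene, the black bar is the median of the list, and coloured points passed limma at an adjusted p under 0.1. Most points are grey, and the shaded band, the middle 50% of all genes tested, reaches from -0.23 to 0.14.

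None of 39 genes for ribosomal proteins and translation factors passed the test. A negative log2 fold change was found in 36 of them (92.3%), compared with 54.5% of all genes tested, and the median was -0.29, compared with -0.03 for all genes, with -0.16 under the biological and -0.40 under the artificial source. Of the 39, 10 had an unadjusted p under 0.05, and edgeR and DESeq2 called 0. Without biological replicate 3, 18 of the 39 (46.2%) fell and 0 rose, against 8.19% of all genes lower in that fit. The values of single members lay between -0.51 (rps24) and 0.30 (rps10).

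**Figure D4:**
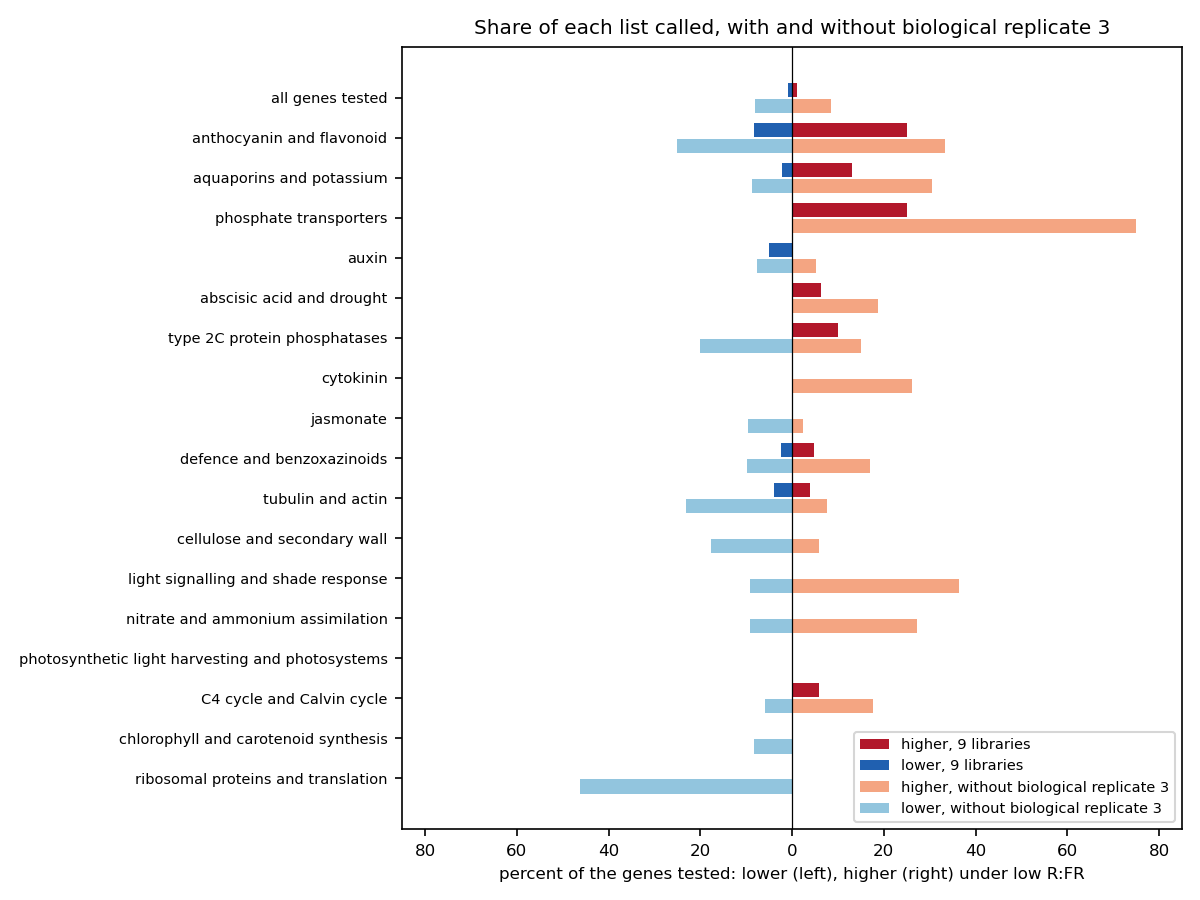
Percent of the genes tested in each list that were lower (left) or higher (right) under low R:FR (limma, adjusted p under 0.1), with all 9 libraries (dark bars) and without biological replicate 3 (pale bars). In the ribosomal list 46.2% were lower without that library, against 8.19% of all genes tested.

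The 2 sources share the 3 control libraries, so their differences from the control are given side by side. Among the 242 genes that rose, the median log2 fold change was 0.80 under the biological and 0.82 under the artificial source. Among the 206 that fell, it was -0.56 under the biological and -1.05 under the artificial source, and the fall was larger under the artificial source in 177 of them (85.9%), compared with 54.6% of all genes tested. If the artificial and control labels were exchanged, each fold change under the artificial source would be weed-free minus artificial leaves, and each difference between sources would be biological minus weed-free leaves. In 243 of the 448 genes the change was at least 1.5-fold under each source, and in 91 at least 2-fold. In 5 genes, all lower, the change was under 1.1-fold under 1 source.

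The difference between sources itself passed for 260 of the 24093 genes (1.08%), 238 higher under the biological (0.988%) and 22 lower (0.0913%; limma, adjusted p under 0.1). Replicate numbers were taken, from these same data, to pair the biological and artificial libraries. With a replicate block over all libraries, 474 genes passed. The count was 961 without biological replicate 3, 0 without biological replicate 1 (3592 genes at an unadjusted p under 0.05), 0 without artificial replicate 1 (1918 genes at an unadjusted p under 0.05), 51 without artificial replicate 2, and 50, 45 and 162 without control replicates 1, 2 and 3. Of the 448 common genes, 24 (5.36%) were among the 260 (9.23% of these), 4 of the genes that rose and 20 of those that fell, and all 20 that fell were higher under the biological source. For 287 of the 448, the 95% interval of the difference between sources included 0, with a median half-width over the 448 of 0.40 log2 units.

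**Figure D5:**
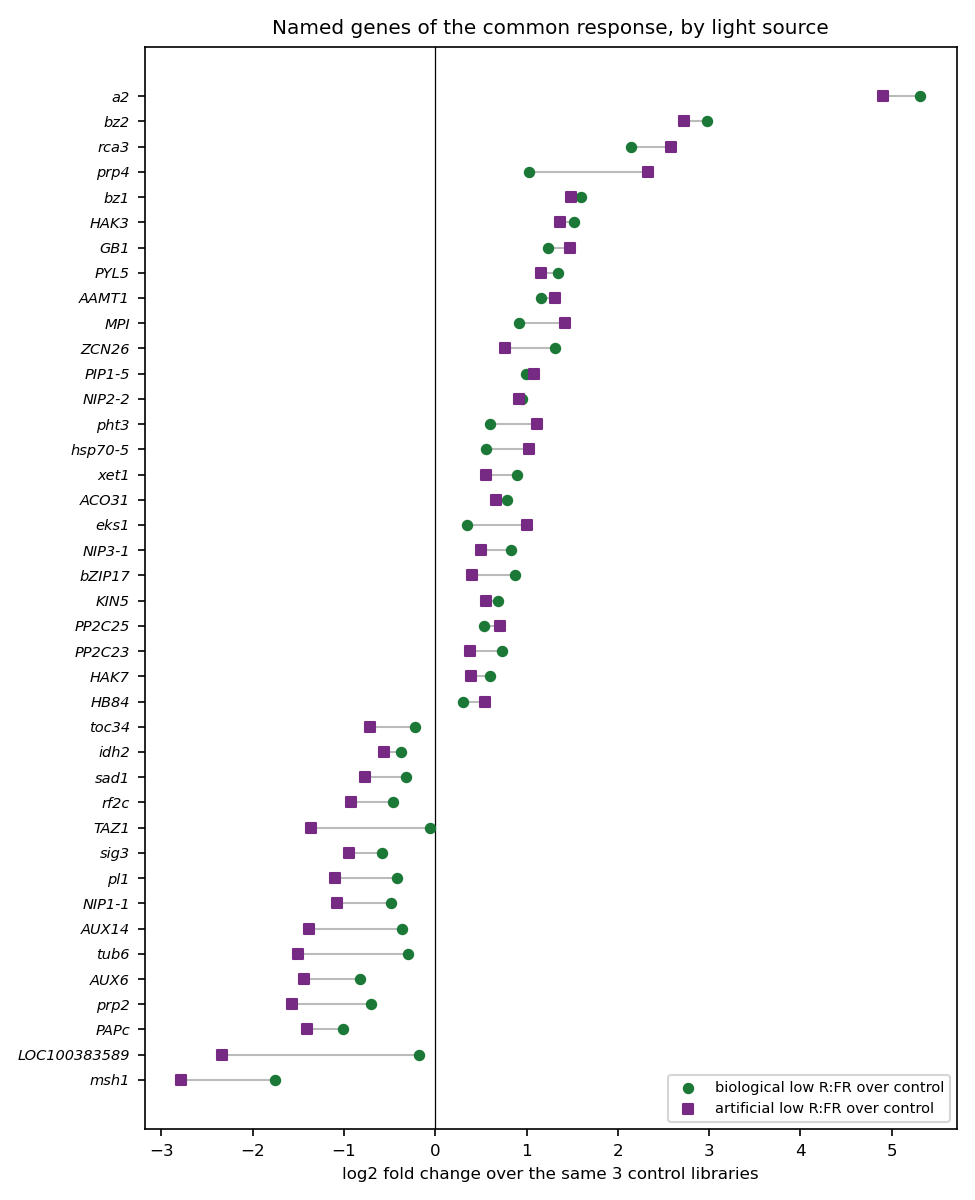
Log2 fold change over the same 3 control libraries (x axis) of the named genes of the common response (1 row each), for the biological source (circles) and the artificial source (squares). For a2 the 2 sources lie at 5.31 and 4.90, whereas for tub6 they lie at -0.30 and -1.50.

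Differences between sources were counted in the same lists. Of 17 cellulose and secondary wall genes, 5 differed between sources, against 1.08% of all genes tested. All 5 were higher under the biological source, as were 238 of the 260 genes that differed. Limma called 0 of the 17 in the common contrast (5 at an unadjusted p under 0.05, 0 with edgeR and 0 with DESeq2). Cesa10, a cellulose synthase gene, had 488, 525 and 730 normalized read counts in biological leaves, against 172, 144 and 211 in artificial leaves, with 348, 348 and 489 in the control. Lac4 (a laccase, of an enzyme family that polymerises lignin) had 104, 109 and 177 in biological leaves and 23.4, 25.9 and 32.1 in artificial leaves, against 68.9, 77.9 and 130 in the control. In both genes all artificial libraries lay below the control range. The log2 difference between sources was 1.72 ± 0.21 for cesa10 and 2.19 ± 0.29 for lac4 (limma adjusted p = 0.0341 for each), and it was 1.45 for cesa11, 1.44 for CesA12 and 1.47 for CesA13.

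Of the 26 genes in the tubulin and actin list, 6 differed, against 1.08% of all genes tested. All 6 were higher under the biological source, the direction of 238 of the 260 genes that differed. Besides tub6 (1.20 ± 0.15, limma adjusted p = 0.0341), these were tua5 (0.94), tub3 (1.06), tub4 (1.20), tub5 (1.42) and tub7 (0.55). Tua5, an alpha-tubulin gene, had 2636, 2327 and 2423 normalized read counts in biological leaves and 1148, 1344 and 1355 in artificial leaves, against 2033, 2166 and 2365 in the control. For tua5 the biological values overlapped the top of the control range, and the artificial values were below it. In the anthocyanin and flavonoid list, fht1 differed by 1.07 and whp by 0.93 between sources, whereas a2 differed by 0.41, bz1 by 0.11 and bz2 by 0.26, which did not pass; the 95% intervals for these 3 genes were -1.47 to 2.28, -0.62 to 0.84 and -1.28 to 1.81, so the data leave room for sizeable differences either way. The genes with the smallest p for the source also included LOC100383589, TAZ1, LOC100281910, LOC100281608 and LOC100383497, with log2 differences of 2.16, 1.30, 1.45, 1.34 and 1.35. Of these, LOC100383589 and TAZ1 also belonged to the common response, and their biological libraries, at 64.5 to 78.9 and 425 to 621, overlapped the controls, at 68.9 to 104 and 473 to 565.

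Most of the common response was in genes without a name. A gene name was given for 54 of the 448 (37 that rose and 17 that fell), and for 2054 of all genes tested (8.53%). Among the unnamed genes, chosen after their values were seen, LOC103643793 (chromosome 10, 25427355 to 25427989) had 128 to 667 normalized read counts under low R:FR (median 357), against 50.1, 48.6 and 43.6 in the control, a log2 fold change of 2.67 ± 0.31 (limma adjusted p = 0.0202). Unnamed genes that fell were LOC100280101 (chromosome 3, 115530917 to 115534746), with 75.9 to 242 (median 95.7), against 633, 951 and 527, and LOC100281433 (chromosome 4, 145827887 to 145830889), with 12.9 to 35.3 (median 20.7), against 86.8, 157 and 124. Their log2 fold changes were -2.52 ± 0.36 and -2.46 ± 0.31 (adjusted p = 0.0335 and 0.0241), without overlap and with nearly equal falls under the biological source (-2.38 and -2.42) and the artificial source (-2.66 and -2.50).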

How the data were processed

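RNA of 9 maize leaf libraries was sequenced (3 biological low R:FR, 3 artificial low R:FR, 3 weed-free control), with groups and replicate numbers taken from the sample labels. The authors deposited a table of normalized read counts, a signal made by dividing each gene's reads by 1 DESeq2 size factor per library, and per-library TPM values (transcript abundance scaled for gene length and library size). Tools named in the submitters' processing notes are HTSeq 0.13.5, Bowtie2 2.4.3 and DESeq2 1.30.1, while the study's methods describe another aligner and counter, and which of them made the files is not settled here. Strand-specific counting is not given in the sources used here. The authors' comparison tables hold their own fold changes and p-values and were not used, and the number of value columns that matched no sample was 0.

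Values were transformed as log2(normalized read count + 1) and genes with at least 10 in at least 3 libraries were kept. Limma 3.58.1 (R 4.3.3) fitted 1 mean per group with the variance following a mean-dependent trend and 6 residual degrees of freedom per gene. The contrast was the mean of both low R:FR groups minus the control, with Benjamini-Hochberg adjustment over the 24093 genes, a threshold of 0.1, and both source means required on the same side of the control. The biological minus artificial contrast came from the same fit. The deposited values were whole multiples of 1 read in all 9 libraries (100% of values within 0.01 of a whole read). EdgeR 4.0.16 and DESeq2 1.42.0 were run on the recovered reads of 8 libraries as alternatives. Artificial replicate 2 was left out of them, although its values were whole reads too. These 2 alternatives thus differ from the main fit in both the method and the libraries. Other alternatives were the pseudocount, no filter, TMM normalization, TPM values, library weights, removal of a gene length trend, no light source term, a replicate block, stricter thresholds and leaving out each library. Of these fits, only the main limma fit was tested on simulated data. The simulation had the same dispersion for every gene, the same changes under both sources and no outlying library. It cannot show how far the calls depend on single libraries. Tables and figures were made with Python 3.11.15.

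The deviations of same-numbered biological and artificial libraries from their group means correlated at 0.124, 0.255 and 0.146 across genes. The numbers were therefore taken to pair these libraries, from the data, as the labels name no shared batch. The block was fitted over all libraries, and control replicate 1 also correlated with biological replicate 1 at 0.124.

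Names came from RefSeq, to which 29125 identifiers matched, with the same start and end in 93.9%. Lists were matched on symbols and synonyms only, 48 matches were removed by hand and some families were added once the names were known. The genes named were those with a mean of at least 50 counts, a call and no overlap between groups, up to 12 with the largest rise and 12 with the largest fall, plus up to 4 called members per direction of each list, 6 for the difference between sources, and all light signalling and nitrogen assimilation genes. The members and lists were chosen with earlier results of these data known.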

Additional observations from a re-analysis of the deposited data

Results flagged for a closer look

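The effects of the biological and the artificial source, each measured against the same control libraries, differed by limma's test of the difference itself (adjusted p under 0.1 over all genes tested) in 19 of the genes described, in all of them with more RNA under the biological source. Most genes that passed this test had that direction, 238 of 260. In the cytoskeleton the log2 difference, biological minus artificial, was 1.20 for tub6, 0.94 for tua5, 1.06 for tub3, 1.20 for tub4, 1.42 for tub5 and 0.55 for tub7. In the wall it was 1.47 for CesA13, 1.45 for cesa11, 1.44 for CesA12, 1.72 for cesa10 and 2.19 for lac4. Among the flavonoid genes it was 1.07 for fht1 and 0.93 for whp. It was 1.03 for AUX14, 2.16 for LOC100383589, 1.30 for TAZ1, 1.45 for LOC100281910, 1.34 for LOC100281608 and 1.35 for LOC100383497. Their adjusted p lay between 0.0341 and 0.096, and none of the 19 would be called without biological replicate 1 or without artificial replicate 1, where limma called 0 genes in all (3592 and 1918 genes at an unadjusted p under 0.05). Groups of 3 libraries are too small for a test of single outlying libraries.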

How the results depend on the processing

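Each of the 448 common genes kept its direction in every alternative, except that 443 did with TPM values. The number that rose was 242, and it was 389 with a replicate block, 2110 with library weights, 412 with the gene length trend removed, 108 with no light source term, 157 with edgeR, 573 with DESeq2 and 51 at an adjusted p under 0.05. The number that fell was 206, and it was 491 with TPM values, 488 with the replicate block, 2811 with library weights, 42 with no light source term, 613 with DESeq2 and 29 at an adjusted p under 0.05. The share of changed genes that were higher, 54.0%, was 36.3% with TPM values, 42.5% with edgeR, 42.9% with library weights, 44.4% with the block and 72.0% with no light source term. Leaving out 1 library in turn gave 0 to 2055 genes that rose and 0 to 1973 that fell, lowest without control replicate 2 and highest without biological replicate 3; 2339 genes had an unadjusted p under 0.05 in the limma fit that called 0. Same-numbered low R:FR and control libraries correlated at -0.007 to 0.124, and same-numbered biological and artificial ones at 0.124 to 0.255. The labels name no batch, and whether the block pairs any of these libraries was not tested.

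The difference between sources, 260 genes, was 474 with the replicate block, 670 with library weights, 41 with edgeR, 746 with DESeq2, 52 at an adjusted p under 0.05 and 0 to 961 with 1 library left out; the limma fits that called 0 lacked biological replicate 1 or artificial replicate 1. Of the 44 called genes named by the rule or as unnamed examples, 44 were also called with a pseudocount of 0.5 or 5, with TMM, with the block, with library weights, with DESeq2, and without biological replicate 2 or 3, against 39 with no filter, 42 with the length trend removed, 38 with TPM values, 29 with edgeR, 16 with no light source term and 0 to 29 with any other library left out. EdgeR and DESeq2 were run without artificial replicate 2, and limma without that library called 29 of the 44. The cause of these differences was not tested. The median half-width of the 95% interval of a difference between sources was 0.47 log2 units over all genes tested.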

Other observations

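Changed genes were found on every chromosome, with shares between 1.34% of the genes tested on chromosome 2 and 2.37% on chromosome 6. Of 21798 protein-coding genes tested, 235 rose and 199 fell (1.99%), and of 1041 long non-coding RNA genes, 6 rose and 3 fell (0.865%). In 11 pairs of neighbouring tested genes both members changed in the same direction, 10 pairs higher and 1 lower. The pair on chromosome 6 formed by LOC100280972 (171170067 to 171172734, plus strand) and LOC115032949 (171172121 to 171172957, minus strand) overlaps on opposite strands. LOC100280972 had 2042 to 3777 normalized read counts in low R:FR leaves (median 3134), against 1380, 1310 and 1339 in control leaves, and LOC115032949 had 456 to 813 (median 651), against 282, 243 and 274. Whether the reads of these genes can be told apart depends on the strand, which was not tested.

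Among genes that transport iron, ys1, the iron phytosiderophore transporter, varied widely between libraries and was chosen after its values were seen. It had 332 to 7829 normalized read counts in low R:FR leaves (median 696), against 52.8, 75.4 and 391 in control leaves. Biological replicate 1 was the highest library, the groups overlapped, and the log2 fold change of 3.05 ± 1.06 did not pass (limma adjusted p = 0.208). Of 7 iron and nicotianamine genes, limma called 0, with 4 at an unadjusted p under 0.05, edgeR called 1 and DESeq2 called 2.

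Lists that mark other cells or stages of the leaf gave no common call with limma. The 11 histone, replication and cell cycle genes had a median of -0.09 (3 at an unadjusted p under 0.05), the 5 wax and cuticle genes of the epidermis -0.27 (0 at an unadjusted p under 0.05), the 9 root and meristem genes -0.12 (1) and the 20 senescence and autophagy genes 0.10 (4). EdgeR called 0 in the first 3 of these lists and 1 in the senescence list, and DESeq2 called 0 in the first 3 and 2 in the senescence list. None of the 2 seed storage genes passed the filter on low counts. The part of such cells in the changes of other genes was not tested.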
